A study of Mus musculus with 4 samples.

Results

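*Dmkn*, *Sbsn* and *Krtdap* are 3 neighbouring mouse genes that encode secreted proteins of stratified epithelia: dermokine, suprabasin and keratinocyte differentiation-associated protein. They were followed here by the 3 rows of that name among the 24378 gene rows of each count table. They were chosen by name and position, but with earlier results of these data known. Cells came from the dorsal skin of 57-day-old female *Ivl-CreERT2*/*R26-tdTomato* mice given tamoxifen at 10 µg/g 2 days earlier, as the labels give the dose (the study's methods give a higher one), so that cells with an active Involucrin promoter were labelled with tdTomato. Live cells with the basal interfollicular surface profile (CD49f+/LY6A+/CD34-neg) were sorted into traced (Tom+) and non-traced (Tom−) populations and captured on 4 chips, 2 for each population, which carry 2 run tags called run 1 and run 2 below. All 4 libraries therefore share genotype, tamoxifen, age and sort. The design text gives 2 mice and does not tie them to chips, so the 2 libraries of a population may be technical repeats and p-values measure the spread between these libraries only. The label marks descent from a cell with an active *Ivl* promoter, not current differentiation.

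Basal keratinocytes of the interfollicular epidermis divide on the basement membrane, make keratins 5 and 14, and switch to keratins 1 and 10 as they differentiate and move up. Dermokine, suprabasin and keratinocyte differentiation-associated protein are best known from the spinous and granular layers above, where they are secreted, and they are commonly used as markers of differentiating keratinocytes. Their genes lie side by side, and the *Dmkn* gene makes several isoforms from more than 1 start.

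In the GENCODE M21 annotation of GRCm38, the 3 genes follow each other on the plus strand of chromosome 7 within 39.6 kb. *Sbsn* (ENSMUSG00000046056.15) spans chr7:30751471-30756134, *Dmkn* (ENSMUSG00000060962.12) spans chr7:30763756-30781063 and *Krtdap* (ENSMUSG00000074199.7) spans chr7:30787896-30791097. The gaps are 7621 bases from *Sbsn* to *Dmkn* and 6832 bases from *Dmkn* to *Krtdap*, with no other annotated gene between them. A processed transcript on the same strand, *Tmem147os*, covers nearly all of *Sbsn* and has no row of its own in the tables. Whether any of its reads were counted as *Sbsn* was not tested.

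RefSeq (GRCm38.p6) gives 5 start sites for the 3 genes, 3 of them in *Dmkn*, and the sequence around the starts is shown as a description only. A link between these sequences and the levels of the genes was not tested. Printed below are 120 bases before to 20 bases after a start, plus strand, with the AP-1 heptamer TGAGTCA in capitals, for *Sbsn* at chr7:30751351-30751490, the distal start of *Dmkn* at chr7:30763636-30763775, its internal start at chr7:30776285-30776424 and *Krtdap* at chr7:30787785-30787924.
Sbsn: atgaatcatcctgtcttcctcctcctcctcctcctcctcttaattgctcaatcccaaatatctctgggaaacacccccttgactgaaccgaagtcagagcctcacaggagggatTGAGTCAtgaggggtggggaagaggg
Dmkn distal start: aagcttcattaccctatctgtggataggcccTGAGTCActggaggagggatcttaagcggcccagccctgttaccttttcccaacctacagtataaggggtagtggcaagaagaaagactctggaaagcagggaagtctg
Dmkn internal start: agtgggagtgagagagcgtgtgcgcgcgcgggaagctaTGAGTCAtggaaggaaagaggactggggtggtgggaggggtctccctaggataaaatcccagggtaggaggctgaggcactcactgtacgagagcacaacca
Krtdap: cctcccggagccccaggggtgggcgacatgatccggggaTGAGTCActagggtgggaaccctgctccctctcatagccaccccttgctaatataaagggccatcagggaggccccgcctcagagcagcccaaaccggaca

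The heptamer, searched as TGAGTCA or its reverse complement TGACTCA from 250 bases before to 50 after each start, was found once in each of the 5 windows, against 5.20% of all 32851 windows of the same length. It lay 89 to 83 bases before the distal *Dmkn* start, 82 to 76 before the internal start and 81 to 75 before *Krtdap*. In *Sbsn* it ran from 6 bases before the start to base 1 after it. A TATA box (TATAAA, both strands, in 13.6% of all windows) was found in *Krtdap* alone of the 3 genes, 30 to 25 bases before the start. A C/EBP motif (TTGCNNAA, 10.8% of all windows) lay in the *Sbsn* window and every *Dmkn* window, and a KLF motif (CACCC, 57.5%) in those of *Sbsn*, *Krtdap* and the internal *Dmkn* start. No GRHL motif (AACCNGTT, 2.09%) was found. The E-box (CANNTG, 72.3%) was found only at the distal *Dmkn* starts. The 2 distal *Dmkn* windows are offset by only 2 bases and hold the same matches. These are matches of letters. The tables hold 1 row for each gene, so the *Dmkn* starts could not be told apart in the counts.

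Of 384 wells, 161 held at least 2000 unique molecular identifiers (UMIs, 1 for each captured transcript molecule) on genes and were kept as cells. These were 35 and 58 Tom+ cells and 20 and 48 Tom− cells of run 1 and run 2, with medians of 3225 to 4525 UMIs per cell and totals of 81630 to 305407 UMIs per library. No well name occurred in more than 1 library. Each cell was thinned at random to 2000 UMIs, so that levels and shares of cells compare at equal depth. Because the assay counts 1 tag at the 5′ end of each molecule, UMI levels were compared between genes without division by length. Basal markers were present in every library (32 genes, summed level 33938 to 52384 CPM, UMIs scaled to a common library total), with *Krt14* UMIs in 60.0% to 95.8% of thinned cells. Summed levels of T-cell markers were 0 to 242 CPM (9 genes) and of Langerhans markers 10.8 to 110 CPM (8 genes), and 3 cells and 2 cells had UMIs of at least 3 genes of those lists. Melanocyte, fibroblast and endothelial lists reached at most 22.9 CPM.

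*Dmkn* was the most widely detected of the 3 genes in every library, including the non-traced ones. After thinning, a *Dmkn* UMI was found in 35 of 35 and 55 of 58 Tom+ cells and in 14 of 20 and 39 of 48 Tom− cells. The shares were 100% (95% Clopper-Pearson interval, 90.0 to 100) and 94.8% (85.6 to 98.9) in Tom+ cells, and 70.0% (45.7 to 88.1) and 81.3% (67.4 to 91.1) in Tom− cells. These intervals, like the others below, cover counting error only. Per cell, *Dmkn* ran from 1 to 25 UMIs with a median of 7 in Tom+ run 1 and from 0 to 26 with a median of 7.5 in Tom+ run 2. In Tom− run 1 it ran from 0 to 13 with a median of 3.5, and in Tom− run 2 from 0 to 17 with a median of 3. The ranges of single cells overlapped widely while both Tom+ medians lay above both Tom− medians.

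*Sbsn* and *Krtdap* were found in most Tom+ cells and few Tom− cells. *Sbsn* UMIs were found in 68.6% (50.7 to 83.1) and 70.7% (57.3 to 81.9) of Tom+ cells and in 35% (15.4 to 59.2) and 20.8% (10.5 to 35) of Tom− cells. Its highest cells held 33 and 32 UMIs in the Tom+ libraries and 6 and 10 in the Tom− libraries, with medians of 1, 2, 0 and 0. *Krtdap* UMIs were found in 62.9% (44.9 to 78.5) and 79.3% (66.6 to 88.8) of Tom+ cells and in 20.0% (5.73 to 43.7) and 10.4% (3.47 to 22.7) of Tom− cells. Its highest cells held 47 and 54 UMIs in Tom+ and 10 and 19 in Tom−, with medians of 2, 5.5, 0 and 0. Tom+ cells thus ran from 0 to over 40 *Krtdap* UMIs within a library.

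**Figure D1:**
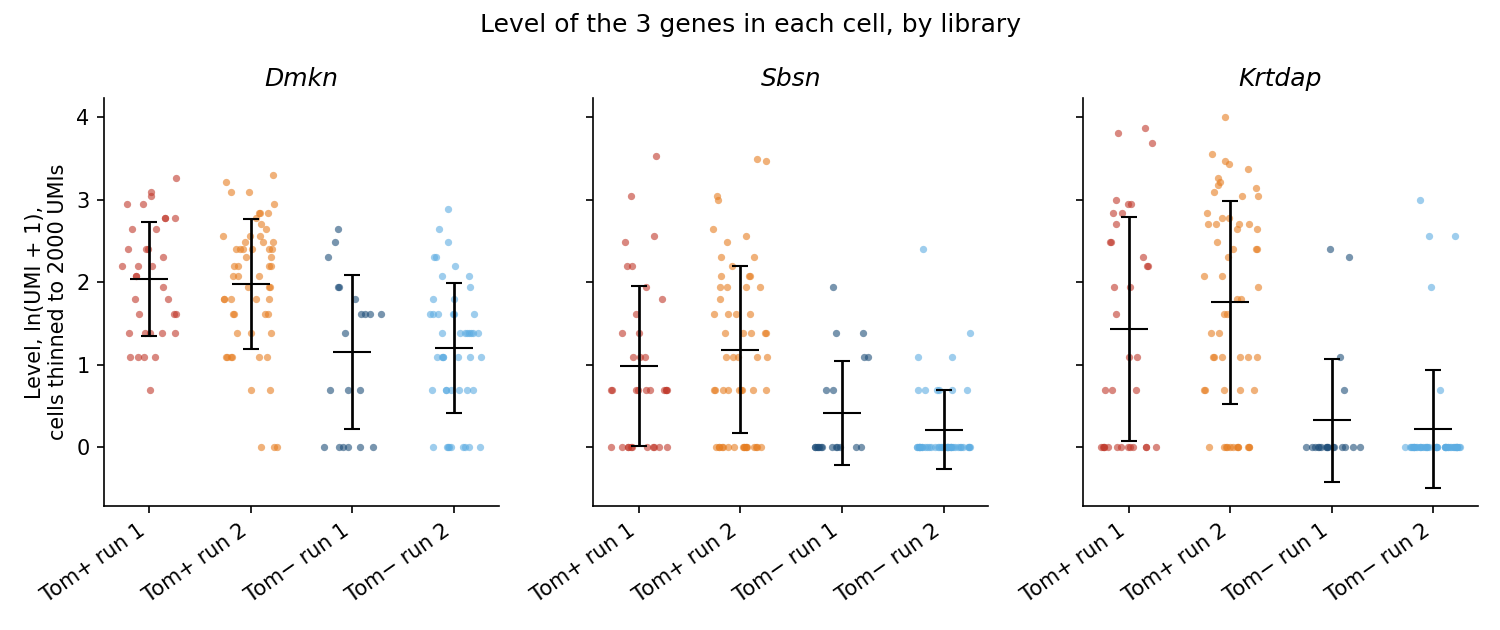
Level of *Dmkn*, *Sbsn* and *Krtdap* in each cell as ln(UMI + 1) after thinning to 2000 UMIs (y axis), by library (x axis). Points are cells, and black bars are the mean ± SD over the cells of a library. *Dmkn* lay above 0 in most cells of all 4 libraries, while most Tom− cells lay at 0 for *Sbsn* and *Krtdap*.

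The mean level over cells was ordered the same way for all 3 genes, with both Tom+ libraries above both Tom− libraries. For *Dmkn* it was 8.63 ± 6.39 and 8.31 ± 6.10 UMIs (SD over 35 and 58 cells) in Tom+ and 3.60 ± 3.87 and 3.46 ± 3.63 (SD over 20 and 48 cells) in Tom−. The 2 Tom+ libraries, and likewise the 2 Tom− libraries, were adjacent in this order and differed by far less than the spread between cells. *Sbsn* averaged 3.69 ± 6.69 and 4.55 ± 6.83 UMIs in Tom+ and 0.900 ± 1.59 and 0.479 ± 1.54 in Tom−. *Krtdap* averaged 8.60 ± 12.5 and 9.84 ± 11.2 UMIs in Tom+ and 1.10 ± 2.92 and 1.04 ± 3.67 in Tom−. By these means *Krtdap* was about as abundant as *Dmkn* within Tom+ cells, and within Tom− cells *Dmkn* led. By medians *Dmkn* led in Tom+ cells too, with 7 against 2 UMIs in run 1 and 7.5 against 5.5 in run 2.

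Sums of all UMIs over the kept cells gave the same picture and allowed a test across genes. *Dmkn* stood at 4489 and 4744 CPM in the Tom+ libraries and at 1825 and 1875 CPM in the Tom− libraries, where it ranked 19th, 25th, 72nd and 72nd among genes with a UMI. *Sbsn* stood at 2302 and 2505 CPM in Tom+ and at 453 and 265 CPM in Tom−. *Krtdap* stood at 4711 and 6077 CPM in Tom+ and at 796 and 591 CPM in Tom−. All 3 genes had both Tom+ libraries above both Tom− libraries, as did 19.4% of the 3070 genes tested.

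Each of the 3 genes was higher in Tom+ cells by edgeR's quasi-likelihood test on these sums with Benjamini-Hochberg adjustment over 3070 genes, against 0.847% of all genes tested (26). On the log2 scale *Krtdap* was higher by 2.95 ± 0.27 (± standard error here and below) with an edgeR adjusted p of 1.08e-06, the smallest p of all genes tested. *Sbsn* was higher by 2.77 ± 0.30, with an edgeR adjusted p of 7.59e-06. *Dmkn* had the smallest difference of the 3, at 1.28 ± 0.23 with an edgeR adjusted p of 0.00500. The *Dmkn* call was lost when Tom+ run 1 was left out (log2 fold change 1.38, adjusted p = 0.0673), when Tom+ run 2 was left out (1.23, adjusted p = 0.119) and with a minimum of 5000 UMIs per well (0.93, adjusted p = 0.237), all from the edgeR test. The other 2 genes passed in every alternative run. In sums over cells, more cells with a transcript and more transcript per cell cannot be told apart. The shares of cells given above differed between the groups for each gene.

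*Krtdap* and *Sbsn* were also higher in Tom+ libraries relative to *Dmkn*. For each *Dmkn* UMI there were 1.05 and 1.28 *Krtdap* UMIs in Tom+ and 0.436 and 0.315 in Tom− libraries, and 0.513 and 0.528 *Sbsn* UMIs in Tom+ against 0.248 and 0.142 in Tom−. *Dmkn* made up 39.0% and 35.6% of the UMIs of the 3 genes in Tom+ and 59.4% and 68.7% in Tom−. A difference between the 3 fold changes was not tested beyond these ratios, for which 2 against 2 libraries cannot give an exact permutation p below 0.333. The few *Krtdap* transcripts of Tom− cells were concentrated: the 3 highest cells held 98.5% of them in run 1 and 92.7% in run 2, against 53.0% and 30.1% in Tom+. For *Dmkn* the 3 highest cells held 28.2% and 22.7% in Tom+ and 58.4% and 32.7% in Tom−.

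**Figure D2:**
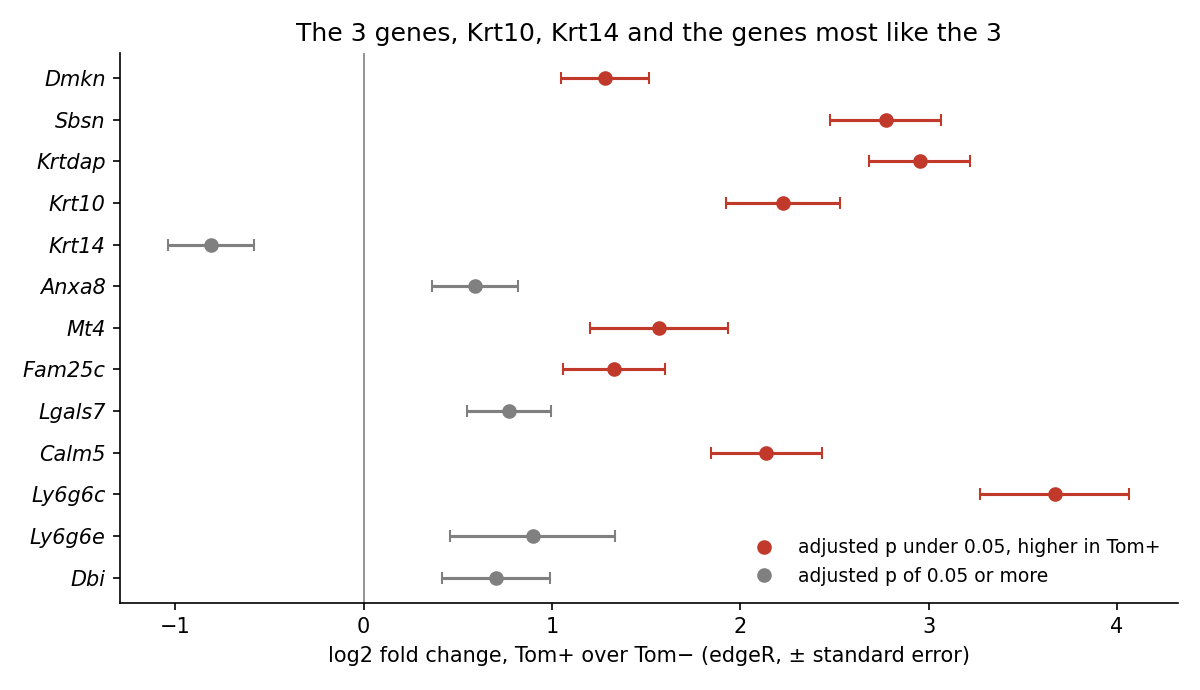
log2 fold change of Tom+ over Tom− (x axis; points, edgeR estimate; bars, standard error) for the 3 genes, *Krt10*, *Krt14* and the 8 other genes whose pattern over Tom+ cells was most like that of 1 of the 3. *Krtdap* (2.95) and *Sbsn* (2.77) lay to the right of *Krt10* (2.23), and *Dmkn* (1.28) to its left.

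Most cells that had *Sbsn* or *Krtdap* also had *Dmkn*, which was itself found in 143 of 161 cells. After thinning, 55 of 161 cells had all 3 genes, 44 had *Dmkn* alone, 25 had *Dmkn* with *Sbsn*, 19 had *Dmkn* with *Krtdap* and 14 had none. Only 4 cells had *Sbsn* or *Krtdap*, or both, without *Dmkn*. In the Tom− libraries *Dmkn* was found in 3 of 4 and 4 of 5 cells with *Krtdap* (75% and 80%), close to its share of all cells there (70% and 81.3%), and in 7 of 7 and 10 of 10 cells with *Sbsn*. In Tom+ run 1 every cell had *Dmkn*. All 3 genes were found together in 16 of 35 (45.7%) and 34 of 58 (58.6%) Tom+ cells and in 3 of 20 (15%) and 2 of 48 (4.17%) Tom− cells. The mean difference was 42.6 percentage points (30.7 within run 1, 54.5 within run 2), and the exact two-sided permutation test over 2 against 2 libraries gave p = 0.333, the smallest it can give. Over 20 other draws of the thinning this difference averaged 50.7 points and ran from 46.3 to 57.8, all above the reported draw, and without thinning it was 64.9 points. *Dmkn* alone was the commonest combination in Tom− cells, with 7 of 20 and 27 of 48 cells, and was found in 5 of 35 and 5 of 58 Tom+ cells. None of the 3 was found in 5 and 8 Tom− cells, in 1 cell of Tom+ run 2 and in 0 of 35 cells of Tom+ run 1, which allows a share of up to 8.57%.

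**Figure D3:**
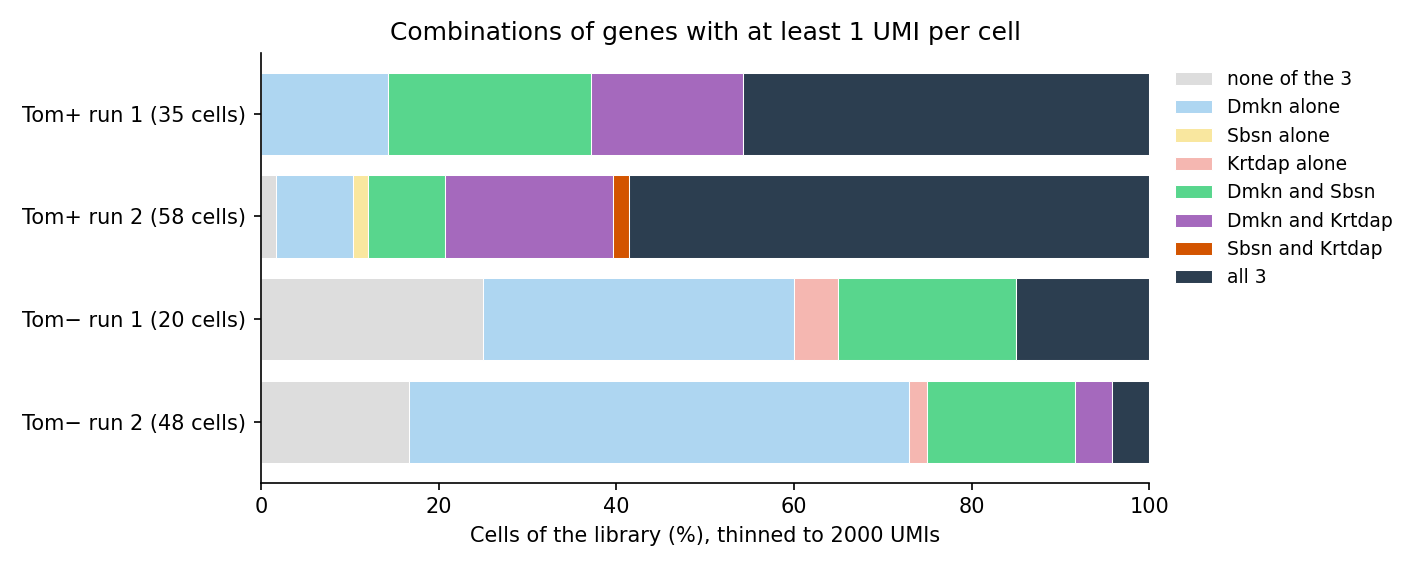
Share of cells (x axis, percent of the library's cells, thinned to 2000 UMIs) with each combination of the 3 genes, by library (y axis). Dark segments (all 3 genes) take 45.7% and 58.6% of the Tom+ bars, and light blue segments (*Dmkn* alone) 35% and 56.3% of the Tom− bars.

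How much more widely than the other 2 *Dmkn* was detected was counted as cells with 1 gene and not the other, which equals the difference between the shares given above and says nothing of order. Of the 77 cells with *Krtdap*, 74 had *Dmkn*, while 69 cells had *Dmkn* without *Krtdap*. In percent of a library's cells, *Dmkn* without *Krtdap* exceeded the reverse by 37.1 and 15.5 points in the Tom+ libraries and by 50.0 and 70.8 points in the Tom− libraries (mean 43.4 ± 23.2, SD, n = 4 libraries). In Tom+ run 1, where every cell had *Dmkn*, the direction was fixed. A gene with more transcripts is detected more often, so within each library the gene with more UMIs was also drawn down to the total of the other. The excess was then 37.1 and 17.1 points in Tom+ and 31.0 and 43.2 points in Tom− (mean 32.1 ± 11.2, n = 4). The exact two-sided sign-flip permutation test gave p = 0.125, the smallest p that 4 libraries allow. Tom+ run 1 held 302 *Dmkn* and 301 *Krtdap* UMIs, so equal totals changed almost nothing there. Its direction stayed fixed, and its sign adds nothing to this test. At equal totals this compares how widely transcripts were spread over cells, and again not order.

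*Sbsn* gave the same direction with a smaller margin once totals were made equal. Of the 82 cells with *Sbsn*, 80 had *Dmkn*, while 63 cells had *Dmkn* without *Sbsn*. The excess was 31.4 and 24.1 points in Tom+ and 35 and 60.4 points in Tom− (mean 37.7 ± 15.8, n = 4 libraries). With equal UMI totals it was 21.7 and 19.4 points in Tom+ and 11.6 and 12.6 points in Tom− (mean 16.4 ± 4.98, n = 4, exact p = 0.125). Between *Krtdap* and *Sbsn* the direction differed between libraries. *Krtdap* without *Sbsn* minus the reverse was -5.71 and 8.62 points in Tom+ and -15 and -10.4 points in Tom− (mean -5.63 ± 10.2, n = 4). With equal UMI totals all 4 libraries lay below 0, from -16.1 to -0.0915 points, so *Sbsn* was then the more widely spread of the 2 (mean -10.2, exact p = 0.125). Cells with *Dmkn* and *Krtdap* also held more *Dmkn* than cells with *Dmkn* alone, with medians of 9.5 UMIs in 74 cells and 3.5 UMIs in 44 cells. By library this held in Tom+ run 2 (10 against 4), Tom− run 1 (9 against 4) and Tom− run 2 (12 against 3), and not in Tom+ run 1 (8 against 9).

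Whether *Dmkn* comes before the other 2 was asked of their position along a cell order built without the 3 genes. Cells were ordered by diffusion pseudotime from the cell with most *Krt14* among those without *Krt10*. A gene's position was the mean rank of its UMIs in percent of the library's cells. This mean does not depend on how abundant the gene is, but it does depend on how widely its UMIs are spread. A gene found evenly in all cells lies near the middle, so a later position of a narrower gene cannot show that it starts later. *Krt14* lay at 19.9 and 34.6 in Tom+ and at 50.9 and 43.7 in Tom−, so after *Dmkn* in Tom− run 1. *Krt10* lay at 63.2 and 61.2 against 63.2 and 70.9. Cells were also split at the middle of the order. The later ones had less *Krt14* in all 4 libraries. Their mean ln(UMI + 1) of *Krt10* was higher by 1.18 and 0.684 in Tom+ and by 0.300 and 0.0163 in Tom−. The order thus followed these keratins less closely in Tom−, where it is weak ground for before or after. *Dmkn* lay at 55.9 and 56.7 in Tom+ and at 46.3 and 57.6 in Tom−. *Sbsn* lay later in 4 of 4 libraries, by 12.6 and 13.1 in Tom+ and by 6.81 and 17.3 in Tom− (mean 12.4 ± 4.32, n = 4, exact sign-flip permutation p = 0.125). The Tom− values rested on 18 *Sbsn* UMIs in 7 cells of run 1 and 23 in 10 cells of run 2. With each cell that had a gene counted once, *Sbsn* lay earlier than *Dmkn* in Tom+ run 1 (49.9 against 50) and Tom− run 1 (46.1 against 52.9). So counted, it lay later in Tom+ run 2 (55.3 against 49.0) and Tom− run 2 (61.5 against 46.4). *Krtdap* lay later by 11.8 and 5.69 in Tom+ and by 24.3 in Tom− run 2, and earlier in Tom− run 1, where the difference was -8.07 and rested on 22 *Krtdap* UMIs in 4 cells (mean 8.44 ± 13.5, n = 4, exact p = 0.375). In cells with at least 5000 UMIs the *Sbsn* difference was -0.275 in the 2 libraries that could be scored. Its mean was 5.06 when Tom+ run 1 was left out and 4.74 when cells were ordered by the first principal component. By that component the 4 libraries did not all share its direction (exact sign-flip permutation p = 0.25). The *Krtdap* mean was 5.56 when Tom− run 2 was left out, and over 20 other draws of the thinning it averaged 9.95 and ran from 0.933 to 15.1. The *Krtdap* difference was above 0 in all 4 libraries when cells were ordered by the first principal component (mean 5.54), by their *Krt10* UMIs (19.1) or without regression (16.9).

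**Figure D4:**
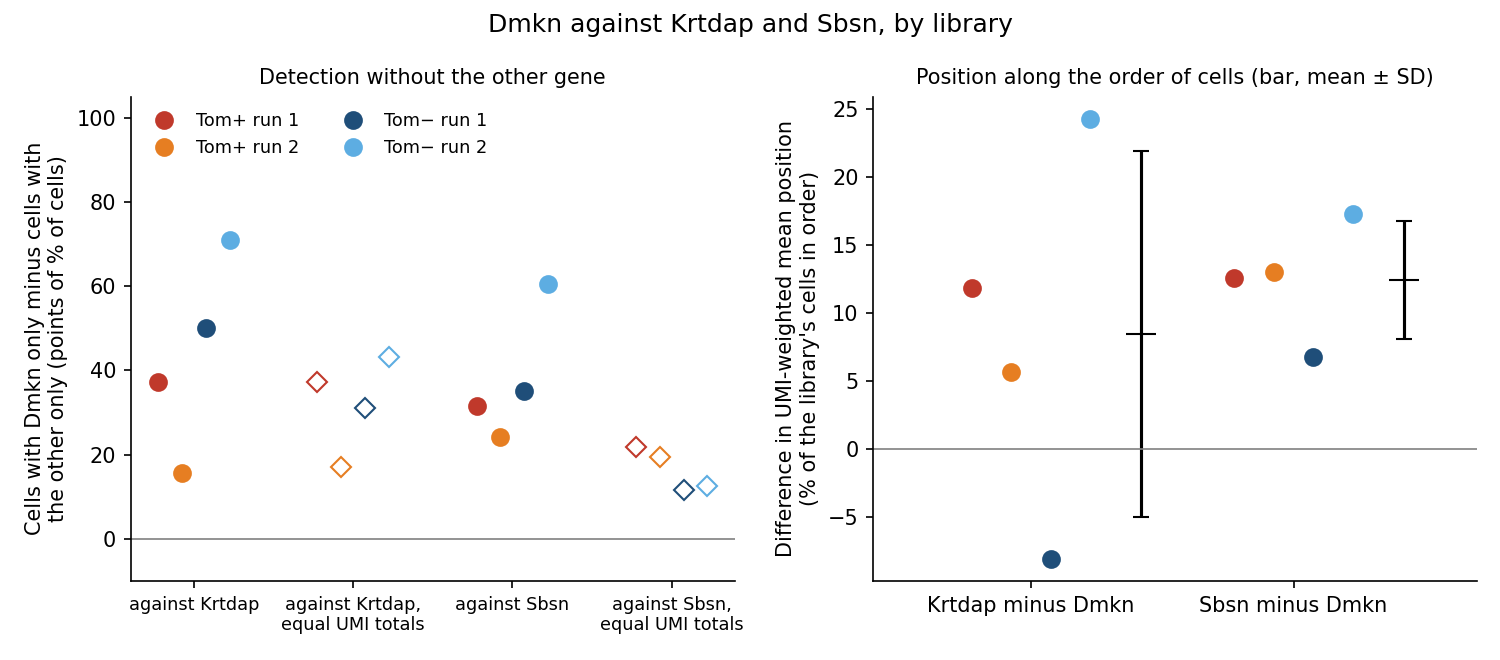
Left, cells with *Dmkn* only minus cells with the other gene only, which equals the difference of their shares (y axis, points of percent of cells), as detected (filled) and after reduction to equal UMI totals (open). Right, UMI-weighted mean position of *Krtdap* or *Sbsn* minus that of *Dmkn* (y axis, percent of the library's cells in order), with the mean ± SD over 4 libraries. Each point is a library, and 1 of the 24 points, *Krtdap* in Tom− run 1 in the right panel, lies below 0.

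*Krt10* UMIs per thinned cell gave a simpler axis on which to place the 3 genes. Of the 161 cells, 55 had no *Krt10* UMI, 38 had 1 to 5 and 68 had at least 6, and 11 cells lay at 5 or 6, next to the boundary. In cells without *Krt10*, *Dmkn* was found in 30 of 38 cells of Tom− run 2 (78.9%, 62.7 to 90.4), *Sbsn* in 7 (18.4%, 7.74 to 34.3) and *Krtdap* in 1 (2.63%, 0.0666 to 13.8). In Tom− run 1 the counts were 6, 2 and 1 of 9 such cells, and the Tom+ libraries held only 5 and 3 such cells, of which 4 and 2 had *Sbsn* and 1 and 1 had *Krtdap*. Over all libraries, 43 of 143 cells with *Dmkn* had no *Krt10* UMI, against 15 of 82 with *Sbsn* and 4 of 77 with *Krtdap*. The pooled count rests on Tom− run 2, which gave 30 of the 43. Within libraries, *Dmkn* and *Sbsn* kept this order in neither Tom+ library, with 5 of 35 against 4 of 24 cells in run 1 and 2 of 55 against 2 of 41 in run 2. *Krtdap* had 1 such cell in each library, of 22 and 46 cells in Tom+ and of 4 and 5 in Tom−. Conversely, 6 cells had *Krt10* without *Dmkn*, 39 without *Sbsn* and 33 without *Krtdap*.

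At high *Krt10* only 3 and 3 Tom− cells stood against 23 and 39 Tom+ cells. With at least 6 *Krt10* UMIs, *Dmkn* was found in 23 of 23 and 38 of 39 Tom+ cells and in 3 of 3 and 3 of 3 Tom− cells, and *Krtdap* in 18 and 36 Tom+ cells and in all 6 Tom− cells. *Dmkn* averaged 10.1 and 10.6 UMIs in these Tom+ cells and 9.33 and 11.0 in these Tom− cells. *Krtdap* averaged 12 and 14.2 UMIs in Tom+ and 7 and 14.3 in Tom−, and *Sbsn* 5.26 and 6.44 in Tom+ and 4 and 4 in Tom−. The difference in ln(UMI + 1) between Tom+ and Tom− was -0.0495 for *Dmkn*, 0.0549 for *Sbsn* and -0.189 for *Krtdap* (exact permutation p = 0.333, 1 and 0.667). For *Sbsn* the runs went opposite ways, with differences of -0.295 in run 1 and 0.405 in run 2, and 6 Tom− cells cannot show that the populations were equal. At 1 to 5 *Krt10* UMIs, *Krtdap* was found in 3 of 7 and 9 of 16 Tom+ cells and in 0 of 8 and 1 of 7 Tom− cells, whereas *Dmkn* was found in 7, 15, 5 and 6 of them. *Sbsn* was found in 2, 5, 2 and 1 of these cells. Over all libraries its share was 26.3% there, against 27.3% without *Krt10* and 83.8% in the high class.

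**Figure D5:**
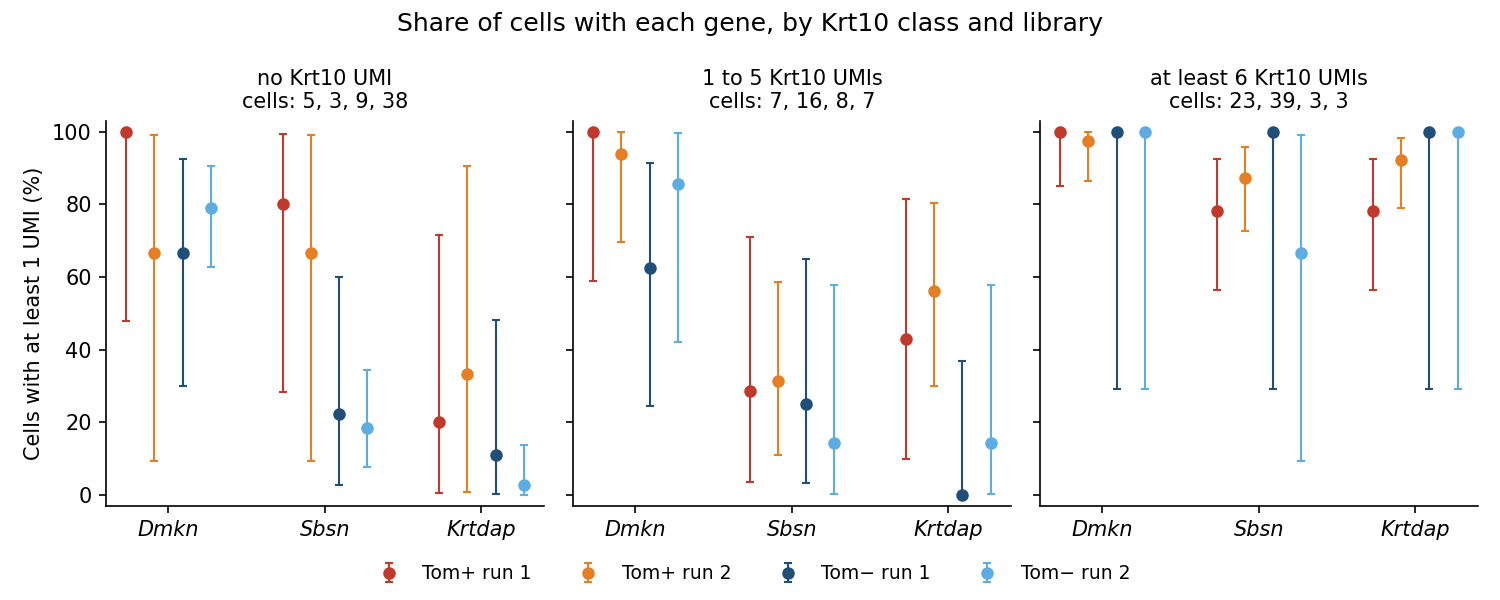
Share of cells with at least 1 UMI of each gene (y axis, percent; bars, 95% Clopper-Pearson intervals) by *Krt10* class (panels) and library (colours), with the number of cells of the 4 libraries above each panel. *Dmkn* was found in 62.5% or more of the cells in every class and library, while *Krtdap* stood at 33.3% or less without *Krt10* and at 78.3% or more in the high class. *Sbsn* stood at 14.3% to 31.3% in cells with 1 to 5 *Krt10* UMIs.

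*Krt14*, the basal keratin, was low in cells with all 3 genes, with medians of 0 and 2 UMIs in the Tom+ libraries and 0 and 0.5 in the Tom− libraries. Cells with none, 1, 2 and all 3 of the genes numbered 14, 47, 45 and 55 and had median *Krt14* levels of 20.5, 30, 27 and 1 UMIs. Their median *Krt10* levels were 0, 0, 2 and 14 UMIs, and their median depth before thinning was 2876, 3515, 3797 and 4715 UMIs, so depth moved with the number of genes and its part in the pattern was not tested. These medians pool libraries, and Tom− cells make up most of the cells with none or 1 of the genes. Tom+ run 1 departed from them: its 5 cells with 1 gene had medians of 1 *Krt14* and 6 *Krt10* UMIs, against 16.5 and 1.5 in its 14 cells with 2 genes. *Krt14* UMIs were found in 114 of 143 cells with *Dmkn*, 58 of 82 with *Sbsn* and 50 of 77 with *Krtdap*. Among all cells they were found in 60.0% and 81.0% in Tom+ and in 90.0% and 95.8% in Tom−. Within each library the share among cells with *Dmkn*, with *Sbsn* or with *Krtdap* was no higher than among all its cells.

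Across the cells of a library, levels of the 3 genes were positively correlated, given here as a description over cells that share a library. Pearson's r of ln(UMI + 1) between *Krtdap* and *Sbsn* was 0.544 and 0.699 in Tom+ (35 and 58 cells) and 0.740 and 0.480 in Tom− (20 and 48 cells). Between *Dmkn* and *Krtdap* it was 0.421, 0.653, 0.476 and 0.412 in the same order, and between *Dmkn* and *Sbsn* 0.365, 0.455, 0.593 and 0.461. *Krtdap* followed *Krt10* with r of 0.615 to 0.894 and *Krt14* with r of -0.870 to -0.592. The values 0.894 and -0.870 came from Tom− run 2, where 5 of 48 cells had *Krtdap*. By Spearman's rank correlation *Krtdap* ran from 0.496 to 0.670 with *Krt10*, from -0.720 to -0.432 with *Krt14* and from 0.225 to 0.687 with *Sbsn*.

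Among 2160 genes with a UMI in at least 10% of the cells of both Tom+ libraries, the 5 most like each of the 3 were ranked by the lower of the 2 Tom+ values of r. For *Krtdap* they were *Calm5* (0.641), *Ly6g6c* (0.625), *Krt10* (0.615), *Fam25c* (0.548) and *Sbsn* (0.544). For *Sbsn* they were *Ly6g6c* (0.607), *Calm5* (0.567), *Ly6g6e* (0.552), *Krtdap* (0.544) and *Dbi* (0.493). For *Dmkn* they were *Anxa8* (0.516), *Mt4* (0.470), *Fam25c* (0.454), *Lgals7* (0.446) and *Calm5* (0.434), so that neither *Krtdap* nor *Sbsn* was among them. *Krtdap* missed this cut narrowly, with r of 0.421 and 0.653 to *Dmkn* in the 2 Tom+ libraries, and *Sbsn* had 0.365 and 0.455. *Calm5*, a calmodulin-like gene of the epidermis, appeared in all 3 lists. These genes were admitted and ranked on Tom+ cells, so their difference from Tom− cells is given as a description only. The log2 fold change was 2.14 for *Calm5*, 3.67 for *Ly6g6c*, 2.23 for *Krt10*, 1.33 for *Fam25c* and 1.57 for *Mt4*, which ran from 0.98 to 2.36 with 1 library left out. It was 0.59 for *Anxa8*, 0.77 for *Lgals7*, 0.90 for *Ly6g6e* and 0.70 for *Dbi*. In edgeR the first 5 passed, *Fam25c* and *Mt4* not in every alternative, and the run as a block added *Anxa8* and *Lgals7*, of which *Lgals7* also passed with DESeq2 and limma-voom.

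The wider differentiation programme is given by lists without the 3 genes. The lists were chosen with earlier results of these data known, so their counts are a description only. Of 34 spinous genes tested, 11 were higher in Tom+ cells, against 0.847% of all genes tested, and none lower (19 and 1 with the run as a block), with a median log2 fold change of 0.90 against -0.0061 over all genes tested. The largest were *Ly6g6c* (3.67), *Hpgds* (3.12), *Krt77* (2.51), *Calm4* (2.28), *Krt1* (2.25) and *Krt10* (2.23), followed by *Ptgs1* (2.15), *Fabp5* (1.96) and the surface protein gene *Lypd3* (1.95). Only 5 spinous genes passed without Tom− run 2, 7 without Tom+ run 2 and 3 with a minimum of 5000 UMIs per well. *Ly6g6c*, *Krt1* and *Krt10* passed in every alternative run, and each of the others named lost its call in at least 1. Of 8 granular and cornified layer genes tested, *Spink5*, a protease inhibitor, passed (2.70), though not without Tom− run 2 (1.80), with thinned sums or with the 5000 UMI minimum. Of 23 basal layer genes, *Thbs1*, a matrix protein gene, was lower (-1.88), though it did not pass without Tom+ run 1 (-1.62), without Tom− run 2 (-1.25) or with the 5000 UMI minimum. *Krt14* (-0.81, adjusted p = 0.0972 from the edgeR test) did not pass, but did with the DESeq2 Wald test (adjusted p = 0.0254) and in edgeR with the run as a block (adjusted p = 2.45e-08), where 6 basal genes were lower. The differences of *Krtdap* and *Sbsn* lay above those of 9 of the 11 spinous genes that passed, and that of *Dmkn* above 1.

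The genes around the locus had few UMIs, and none of those tested passed. Of the 10 RefSeq genes with a row in the tables on each side of the 3, 11 had no UMI in any kept cell, and each of the 20 had fewer UMIs in total than *Sbsn*, the lowest of the 3 with 1213. The nearest, *Gapdhs* upstream and *Ffar2* downstream, had 0 and 2 UMIs. Only *Cox6b1*, *Usf2* and *Lsr* could be tested, with log2 fold changes of 0.17, 0.85 and 0.32 (adjusted p = 0.959, 0.831 and 0.959 from the edgeR test).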

How the data were processed

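The authors deposited UMI counts per gene and well from 5′ STRT libraries made on Fluidigm C1 chips, 1 table per chip, without normalization and with spike-in and reporter rows, which were left out of library sizes. The submitters' notes name mm10 and GRCm38. The aligner is not given in the sources used here. Counts were summed over wells with at least 2000 gene UMIs and tested with edgeR 4.0.16 (TMM, filterByExpr, threshold 0.05) in R 4.3.3, an approach tested on simulated data. Cells were thinned to 2000 UMIs (seed 1) and ordered with Scanpy 1.11.5 (4000 variable genes, 20 components, 15 neighbours, regression of log counts, ERCC percentage and cell cycle scores, without the 3 genes, 12 basal and differentiation markers such as *Krt14* and *Krt10*, the reporter and cell cycle genes). Positions needed at least 10 UMIs of both genes. Shares carry Clopper-Pearson intervals. A 0 was limited by 3 counts.

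The 3 genes, the lists and the motifs were chosen with earlier results of these data known. Genes named are the 3, *Krt10* and *Krt14*, the 5 most like each, list genes past the threshold (up to 10 in each direction) and the neighbours. Alternatives were other UMI minimums (1000, 5000), removal of the deepest 5% of cells or of 1 library at a time, 20 other seeds, full counts, at least 2 UMIs per gene, equal UMI totals, other orders, DESeq2 1.42.0, limma-voom (limma 3.58.1), no filter, thinned sums and the run as a block. Over 3199 genes, deviations of same-run libraries from their group means correlated at r = 0.0892, and the reported fit did not pair libraries by run. This correlation cannot exclude a pairing. The sign-flip tests count the 4 libraries as independent. If the run were the unit, 2 units would allow no sign-flip p below 0.5.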

Additional observations from a re-analysis of the deposited data

Results flagged for a closer look

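In the 54 wells with at least 1 but fewer than 2000 gene UMIs, which entered no reported value and of which 14 were used by the alternative with a minimum of 1000 UMIs, UMIs of all 3 genes were found above the 5.56% that a count of 0 would allow. *Dmkn* was found in 35.2% of these wells (19), *Krtdap* in 14.8% (8) and *Sbsn* in 7.41% (4). That limit served as a flag and is no test. By library the share of wells with *Sbsn* was 9.09% and 11.1% on the Tom+ chips and 8.33% and 4.55% on the Tom− chips. Each lay below the limit for a count of 0 in that library (27.3%, 33.3%, 25% and 13.6%). The wells held a median of 147.5 UMIs, and *Dmkn* led there, at 1730 CPM against 566 for *Krtdap* and 333 for *Sbsn*. The share of wells with *Dmkn* was 36.4% and 55.6% on the Tom+ chips and 8.33% and 40.9% on the Tom− chips. What these wells held was not tested.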

How the results depend on the processing

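The 5 cell and position results kept their direction in every alternative run, except that the position of *Sbsn* minus *Dmkn* was -0.275 with a minimum of 5000 UMIs per well, in 2 libraries. With 4 libraries none could pass 0.05. *Krtdap* and *Sbsn* passed in all 13 alternatives, DESeq2 and limma-voom included. The log2 fold change of *Dmkn* ran from 1.20 to 1.41 with 1 library left out, with the call lost without either Tom+ library, and was 0.93 with a minimum of 5000 UMIs, also not passing. The cause was not tested. Of all genes tested, 38 passed in the reported fit, 27 to 65 with 1 library left out (65 without Tom− run 1), 21 with thinned sums and 8 with a minimum of 5000 UMIs, where 1227 genes were tested. With the run as a replicate block 116 passed, among them the 3 genes, with log2 fold changes of 1.28 (*Dmkn*), 2.79 (*Sbsn*) and 2.96 (*Krtdap*). No blocked fit was made for shares and positions. Without a filter on low counts the median of all genes moved to 0.11. Spinous genes higher in Tom+ numbered 11 in the reported fit, 5 to 14 with 1 library left out, 3 with a minimum of 5000 UMIs and 19 with the block. *Cox6b1*, which was not called, turned to -0.034 with a minimum of 5000 UMIs and ran from -0.024 (without Tom− run 2) to 0.40 with 1 library left out. A library left alone in its group was assumed to vary like the others. The number of cells, 20 in Tom− run 1, limits each share of Tom− cells.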

Other observations

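Of the 93 Tom+ cells, 45 held UMIs of the tdTomato reporter row, as did 3 of the 48 cells of Tom− run 2 and none of Tom− run 1. In run 1, cells with and without reporter UMIs had *Sbsn* in 75.0% and 63.2% and *Krtdap* in 68.8% and 57.9% of cells, and in run 2 *Sbsn* in 82.8% and 58.6% and *Krtdap* in 79.3% and 79.3%. The cells with reporter UMIs were also deeper, with medians of 4425 against 3793 UMIs in run 1 and 5077 against 4311 in run 2, and the part of depth before thinning was not tested.

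Of 6 cells with UMIs of at least 2 of 8 mitosis genes, a list chosen after the data had been seen, 4 came from Tom+ run 2. After thinning 5 had *Dmkn*, 4 had *Sbsn* and 1 had *Krtdap*, and without thinning 5, 4 and 4. Of the 3 cells with at least 3 T-cell marker genes, 2 came from Tom+ run 2 and held 9 and 13 *Dmkn*, 7 and 6 *Sbsn* and 14 and 20 *Krtdap* UMIs after thinning, which lies within the range of the other cells of that library. The third, from Tom− run 2, held no *Dmkn*, no *Sbsn* and 1 *Krtdap* UMI, and is the 1 cell of that library with *Krtdap* and without *Dmkn*.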
